A study of Mus musculus with 72 samples.

Results

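Expression of 10 genes of lipid droplets and lipolysis was measured in the livers of tumour-bearing mice and PBS controls: Plin2, Plin4, Plin5, Cidea, Cideb, Cidec, Pnpla2, Pnpla3, G0s2 and Lpin1. They were taken by symbol and make up 10 of the 20105 genes counted. Hepatocytes store fat as triglyceride in droplets, whose surface is covered by perilipins. Droplets grow by fusion and lipid transfer, which the CIDE proteins promote, and are emptied by lipolysis. The first step of lipolysis is carried out by ATGL, the product of Pnpla2, and G0s2 encodes a direct inhibitor of that enzyme. Lipin 1, the product of Lpin1, makes the diglyceride that is the last intermediate before triglyceride, and also acts as a co-regulator of transcription with PPARα and PGC-1α.

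Nuclei came from livers of Hep-INTACT mice, in which Cre under the albumin promoter turns on a green nuclear envelope tag in hepatocytes, and every animal, PBS controls included, carried both transgenes. From each animal, bead-bound nuclei (hepatocyte nuclei) and whole liver nuclei were sequenced as total RNA. Mice of the BALB/c strain formed the C26 cohort, with cachexia, pre-cachexia and PBS groups, and the NC26 cohort, with tumour and PBS groups. Mice of the C57BL/6N strain formed the 8025 cohort, with cachexia and PBS groups, and the MC38 cohort, with tumour and PBS groups. The design text describes C26 and 8025 as tumours that cause cachexia, with livers taken once more than 10% of body weight was lost, and NC26 and MC38 as weight-stable tumours. The time of day was ZT9 for every group, PBS controls included. The genotype is labelled CAG-Sun1/sfGFP, Albumin-Cre. Age and sex are not in the labels, nor is the weight loss of the pre-cachexia group. Each of the 9 groups held 4 animals, so that 36 animals gave 72 libraries in 18 groups.

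Libraries held 8.49 to 56.4 M gene counts (M, the SI mega) in hepatocyte nuclei (median 26) and 12.2 to 30.3 M in whole liver nuclei (median 20.1). Values are CPM, read counts brought to a common library size with TMM scaling within a fraction. A call means an adjusted p under 0.05 in edgeR's quasi-likelihood test over all genes. Fold changes are on a log2 scale with a standard error (SE) computed back from the test statistic. The 8 hepatocyte markers, such as albumin, summed to 8000 to 25600 CPM in hepatocyte nuclei. C26 pre-cachexia was lowest, at 8000 to 10600 CPM, against 13100 to 15700 CPM in C26 PBS, and C26 cachexia had 14400 to 25600 CPM. Whole liver nuclei had 8800 to 11800 CPM in C26 pre-cachexia against 15300 to 21900 CPM in C26 PBS, and 16000 to 24300 CPM in C26 cachexia, so neither fraction overlapped between pre-cachexia and the other groups of that cohort. The 7 adipocyte markers, such as adiponectin and leptin, summed to at most 0.761 CPM in hepatocyte nuclei, where Cfd was at 0 throughout, and 4.46 CPM for whole liver. Of 7 macrophage markers, 5 were called higher in C26 cachexia, 6 in C26 pre-cachexia and 6 in 8025 cachexia, each against PBS in hepatocyte nuclei. Their summed level was 66.3 to 100 CPM in C26 cachexia, 70.5 to 86.3 CPM in C26 pre-cachexia and 39.7 to 64.6 CPM in C26 PBS, and 102 to 130 CPM in 8025 cachexia against 39.4 to 47.5 CPM in 8025 PBS. The weight-stable NC26 tumour also had 3 of 7 called higher in whole liver nuclei. Sums there were 369 to 433 CPM in NC26 tumour and 259 to 305 CPM in NC26 PBS. For NC26 in hepatocyte nuclei and MC38 in both fractions, 0 of 7 were called. Of 6 cholangiocyte markers, 5 were called higher in 8025 cachexia in each fraction, with sums of 9.63 to 50.9 CPM in 8025 cachexia against 3.86 to 5.64 CPM in 8025 PBS in hepatocyte nuclei. Without the third 8025 cachexia animal, 3 of the 6 were called higher in hepatocyte nuclei, Cftr and Krt7 being lost. Of 4 neutrophil markers tested in whole liver nuclei, 4 were called higher in 8025 cachexia and 4 in C26 cachexia; all 6 markers summed to 41.4 to 60.7 CPM in 8025 cachexia against 3.4 to 6.65 CPM in 8025 PBS, and to 8.94 to 12 CPM in C26 cachexia against 4.48 to 5.5 CPM in C26 PBS. The part of these cell types in the results below was not tested. In these bulk samples, fewer cells of a type and less RNA per cell cannot be told apart. Library numbers in the labels form separate runs for the C26 and 8025 cohorts and for the NC26 and MC38 cohorts, so that library number and kind of tumour cannot be told apart in any comparison across them.

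In 3 animals, over 5% of the genes tested in hepatocyte nuclei stood far from the rest of the group, as judged by Dixon's ratio. In the third 8025 cachexia animal, 5.09% of the genes tested in hepatocyte nuclei stood apart in this way, against 0.836% to 1.01% in the other animals of that group. In the first C26 PBS animal the share was 7.28%, against 0.633% to 0.964% in its group, and its hepatocyte library also had the highest share of reads on 5 genes that carry ribosomal RNA-like sequence (7.00%, where 1.04% was the lowest). In the third C26 pre-cachexia animal the shares were 5.07% in hepatocyte nuclei and 5.18% for whole liver. Results of the members that rest on any of these animals are given with and without it, except in the paired comparison of the fractions, which was not refitted. For the lists of other genes counted here, calls lost without it are given only for hepatocyte nuclei in C26 and 8025 cachexia against PBS.

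Of the 10 genes, 9 passed the filter on low counts in both fractions. Cidea, which in mice marks brown fat and the fatty liver, had 64 counts in all, in 34 of 72 libraries, and was not tested. Its highest level was 0.235 CPM, in the whole liver nuclei of the fourth C26 PBS animal. Cidec was scarce but had counts in 72 of 72 libraries. Per kilobase of counted gene span, introns included, Lpin1 (21.8 ± 26.4 CPM per kb) and G0s2 (17.2 ± 10.0) were the most abundant in hepatocyte nuclei of PBS animals. They were followed by Cideb (4.77 ± 0.567), Plin2 (4.29 ± 1.53), Plin5 (3.88 ± 2.51), Plin4 (2.67 ± 2.02) and Pnpla2 (2.14 ± 1.16), whose SDs over n = 16 animals overlap from each gene to the next. Pnpla3 (0.106 ± 0.122) and Cidec (0.0587 ± 0.0270) came last. The spreads of Lpin1 and G0s2 overlapped, as did those of Pnpla3 and Cidec, whereas those of G0s2 and Cideb and of Pnpla2 and Pnpla3 did not. The order was the same in whole liver nuclei. It differed by strain: in hepatocyte nuclei G0s2 (22.6 ± 10.3) stood above Lpin1 (7.79 ± 3.32) in BALB/c, while Lpin1 (35.8 ± 32.2) stood above G0s2 (11.9 ± 6.72) in C57BL/6N. Plin2 was 5.24 ± 1.35 in BALB/c, above Cideb, and 3.35 ± 1.05 in C57BL/6N, below Plin5 and Plin4 (n = 8 each). Because nuclear total RNA was counted over whole gene spans, these levels include unspliced transcripts.

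The sequences upstream of the genes that were called in at least 1 comparison of cachexia or pre-cachexia in hepatocyte nuclei are shown to give the letters of the promoters concerned. They are the 250 bases before the RefSeq start, 5′ to 3′ on the gene's strand, in GRCm38.p6, the build that mm10 names, at G0s2 chr1:193273189-193273438 (-), Pnpla2 chr7:141454938-141455187 (+), Lpin1 chr12:16610967-16611216 (-), Pnpla3 chr15:84167566-84167815 (+), Plin4 chr17:56109783-56110032 (-), Plin2 chr4:86670060-86670309 (-). Capitals mark matches to any of 8 motifs on either strand.
G0s2: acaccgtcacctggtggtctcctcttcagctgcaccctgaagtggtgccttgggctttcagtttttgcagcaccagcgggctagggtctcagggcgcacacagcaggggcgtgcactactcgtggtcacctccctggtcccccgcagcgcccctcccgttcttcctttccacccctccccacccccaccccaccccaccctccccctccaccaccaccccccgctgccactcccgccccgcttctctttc
Pnpla2: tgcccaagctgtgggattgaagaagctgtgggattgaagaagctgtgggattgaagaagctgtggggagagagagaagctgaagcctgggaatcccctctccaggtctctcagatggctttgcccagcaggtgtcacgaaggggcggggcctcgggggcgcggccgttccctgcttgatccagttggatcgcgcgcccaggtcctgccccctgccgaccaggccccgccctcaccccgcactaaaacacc
Lpin1: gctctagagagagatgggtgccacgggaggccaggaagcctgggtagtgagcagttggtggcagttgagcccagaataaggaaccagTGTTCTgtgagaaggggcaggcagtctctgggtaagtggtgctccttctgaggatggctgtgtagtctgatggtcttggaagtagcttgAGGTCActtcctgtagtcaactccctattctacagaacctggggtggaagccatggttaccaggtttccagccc
Pnpla3: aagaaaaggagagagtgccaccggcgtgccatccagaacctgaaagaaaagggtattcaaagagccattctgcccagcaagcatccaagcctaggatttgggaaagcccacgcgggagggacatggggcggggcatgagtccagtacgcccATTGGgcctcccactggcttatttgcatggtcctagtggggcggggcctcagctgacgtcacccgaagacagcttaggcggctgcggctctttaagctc
Plin4: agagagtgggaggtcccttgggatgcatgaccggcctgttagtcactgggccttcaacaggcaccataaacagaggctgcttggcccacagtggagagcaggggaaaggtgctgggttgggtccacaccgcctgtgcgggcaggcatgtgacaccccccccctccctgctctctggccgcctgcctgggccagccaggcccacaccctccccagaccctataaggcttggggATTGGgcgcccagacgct
Plin2: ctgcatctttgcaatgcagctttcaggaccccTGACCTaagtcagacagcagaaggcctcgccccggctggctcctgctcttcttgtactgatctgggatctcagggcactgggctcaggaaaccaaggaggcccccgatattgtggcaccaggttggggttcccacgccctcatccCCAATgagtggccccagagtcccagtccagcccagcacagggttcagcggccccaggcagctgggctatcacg
The motifs searched were the E-box CACGTG, the STAT site TTCNNNGAA, the nuclear receptor half-site AGGTCA, the glucocorticoid receptor half-site TGTTCT, the C/EBP site TTGCNNAA, the D-box TTANGTAA, the TATA box TATAAA and the CCAAT box CCAAT, and no match overlaps another in these 6 sequences. AGGTCA was found in Plin2 (bases -218 to -213) and Lpin1 (-74 to -69), against 14.0% of all 32851 RefSeq promoters in the same window. TGTTCT was found in Lpin1 (-163 to -158), against 16.1%, and CCAAT in Plin2 (-73 to -69), Plin4 (-18 to -14) and Pnpla3 (-99 to -95), against 33.8%. No match was found in G0s2 or Pnpla2, which says only that these letters are not in this window. The Lpin1 start lies upstream of the counted span, which is chr12:16535669-16589770. Of the 10 genes, 9 had an entry in the RefSeq promoter table.

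In C26 cachexia the ATGL inhibitor G0s2 fell and Pnpla2, which encodes ATGL, rose, while the other 7 genes tested did not pass. This comparison asks what the liver of a wasting animal expresses relative to a tumour-free one. G0s2, on chromosome 1 (chr1:193272160-193273188, minus strand), had 1.64, 4.80, 1.44 and 0.594 CPM in the hepatocyte nuclei of C26 cachexia animals, against 33.2, 20.9, 41.6 and 9.68 CPM in those of PBS animals. Every cachectic animal lay below every PBS animal, and the groups did not overlap. The log2 fold change was -3.63 (SE 0.56, adjusted p = 2.2e-05, edgeR), a 12.4-fold lower level. In whole liver nuclei G0s2 had 1.92, 4.4, 1.83 and 1.17 CPM in C26 cachexia and 13.2, 21.2, 45.6 and 15.3 CPM in PBS, again without overlap (log2 -3.29, SE 0.47, adjusted p = 5.0e-06, edgeR). The call held in each of the 8 fits that left out 1 animal in both fractions; without the second cachexia animal, the highest of its group, the change in hepatocyte nuclei was -4.46, and without the first PBS animal it was -3.52.

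Pnpla2 (chr7:141455188-141460743, plus strand) had 18.4, 8.16, 21.2 and 10.9 CPM in hepatocyte nuclei of C26 cachexia animals and 11.9, 4.59, 7.84 and 6.87 CPM in those of PBS animals. Here the groups overlapped: the second cachexia animal was below the first PBS animal. The change was 0.91 (SE 0.30, adjusted p = 0.025, edgeR), or 1.88-fold. This call rested on single animals: it was lost without cachexia animal 1 or 3 or PBS animal 2, 3 or 4 (adjusted p 0.056 to 0.14), and in a fit of the C26 cohort alone (0.068); without PBS animal 1 it was 1.17 (0.0071). In whole liver nuclei Pnpla2 rose by 0.96 (SE 0.28, adjusted p = 0.013, edgeR), and that call was lost without cachexia animal 3 (0.066) or PBS animal 1 (0.064).

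These were 2 of 9 genes called in C26 cachexia in each fraction, beside 22.2% of all genes tested in hepatocyte nuclei and 22.1% for whole liver, so the share of called members was near that of genes at large. Groups did not overlap for 2 of 9 members in hepatocyte nuclei and 3 of 9 for whole liver, beside 20.8% and 25.5% of all genes tested. The median change of the 9 members was -0.18 in hepatocyte nuclei, where that of all genes was 0. Cidec (chr6:113424634-113435760, minus strand), which promotes the growth of large droplets, had 0.120, 0.193, 0.288 and 0.324 CPM in hepatocyte nuclei of C26 cachexia and 0.466, 0.841, 0.686 and 1.27 CPM in PBS. The 4 cachectic animals were all below the PBS animals, but the change of -1.78 (SE 0.73) had an adjusted p of 0.078 with edgeR; it passed in DESeq2 (0.046) and in a fit of the C26 cohort alone (0.0065). Plin2, the main perilipin of the hepatocyte droplet, had a change of -0.87 (SE 0.39, adjusted p = 0.10), which passed without cachexia animal 1 (-1.36, adjusted p = 0.016; -1.34, adjusted p = 0.012, in whole liver nuclei).

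**Figure D1:**
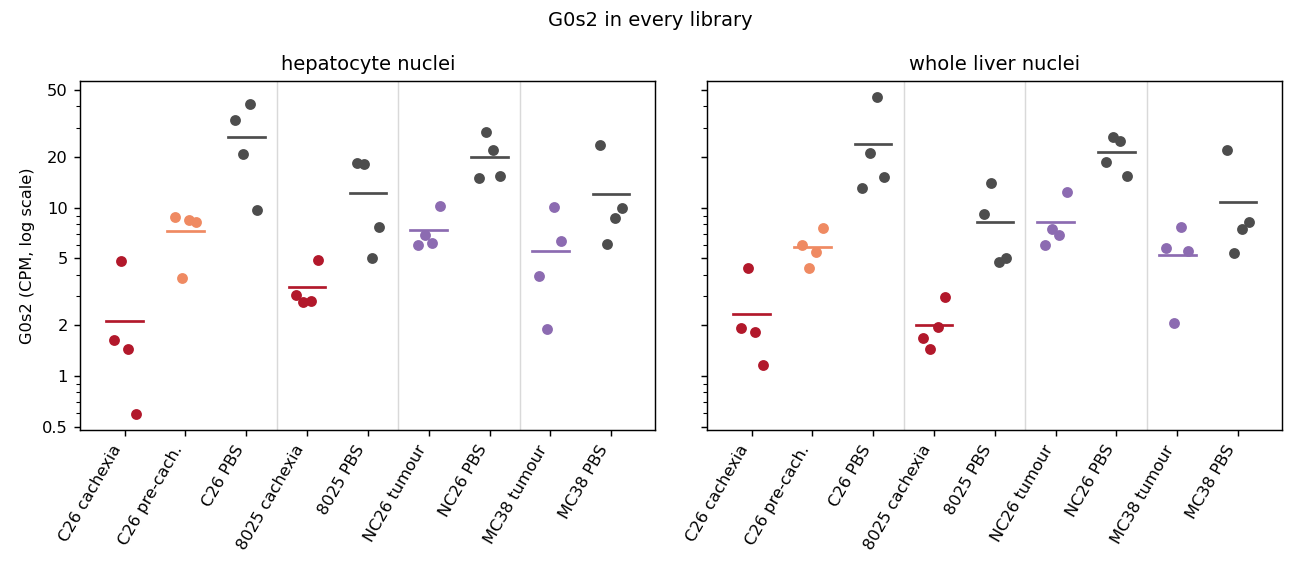
G0s2 in every library, in CPM on a log scale, with hepatocyte nuclei on the left and whole liver nuclei on the right; points are animals and lines are group means. The C26 cachexia animals lie between 0.594 and 4.80 CPM in hepatocyte nuclei, all below the PBS animals of their cohort, and the 8025 cachexia animals lie between 2.74 and 4.87 CPM, below PBS values of 5.06 to 18.4.

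In C26 pre-cachexia, G0s2 fell relative to the same PBS animals and no other member was called. Its levels were 8.85, 3.83, 8.42 and 8.21 CPM in hepatocyte nuclei of pre-cachexia animals, against the PBS values given above, all of which were higher. The change was -1.85 (SE 0.51, adjusted p = 0.025, edgeR), and -2.03 (SE 0.44, adjusted p = 0.0023) in whole liver nuclei. The hepatocyte call was lost without pre-cachexia animal 1 (adjusted p = 0.063) or 2 (0.085) or PBS animal 3 (0.096) and in a fit of the C26 cohort alone (0.069), whereas the whole liver call held in each of these. Thus 1 of 9 members was called in each fraction, beside 7.72% of all genes in hepatocyte nuclei and 12.8% for whole liver. Groups did not overlap for 1 of 9 members in hepatocyte nuclei and 3 of 9 for whole liver, beside 10.8% and 17.3% of all genes. Without the third pre-cachexia animal G0s2 was at -1.93 in hepatocyte nuclei and -2.0 for whole liver, and without the first PBS animal at -1.73 and -2.24, all of which passed. Without the first C26 PBS animal, Pnpla2 also passed in hepatocyte nuclei (0.93, adjusted p = 0.047), where it was 0.66 (SE 0.30, adjusted p = 0.17) with all animals.

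Between pre-cachexia and cachexia of the C26 cohort, Lpin1 and Plin4 rose and Plin2 and G0s2 fell in hepatocyte nuclei. Lpin1 had 939, 742, 1010 and 1600 CPM in cachexia and 367, 154, 188 and 163 CPM in pre-cachexia. Every cachectic animal was above every pre-cachectic one. The change was 2.3 (SE 0.62, adjusted p = 0.016, edgeR), and the call was lost without cachexia animal 4 (0.072) or pre-cachexia animal 2 (0.067) or 4 (0.055). Plin4 (chr17:56100591-56109802, minus strand), a perilipin best known from adipocytes, had 26.1, 39.9, 25.0 and 40.3 CPM in cachexia and 8.77, 6.77, 16.5 and 6.07 CPM in pre-cachexia, without overlap (1.80, SE 0.57, adjusted p = 0.044, edgeR). Plin2 went the other way, with 57.1, 20.2, 27.2 and 19.3 CPM in cachexia and 118, 66.8, 40.7 and 76.9 CPM in pre-cachexia. Here the groups overlapped through the first cachexia animal and the third pre-cachexia animal (-1.29, SE 0.39, adjusted p = 0.031, edgeR). G0s2 differed by -1.78 (SE 0.54, adjusted p = 0.032, edgeR), and by -2.60 without cachexia animal 2.

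In this comparison, 4 of 9 members were called in hepatocyte nuclei and 3 of 9 for whole liver, beside 9.09% and 11.6% of all genes tested. Groups did not overlap for 3 of 9 members in each fraction, beside 12.7% and 14.9% of all genes. The whole liver changes were 2.28 for Lpin1 (adjusted p = 0.011), 1.77 for Plin4 (0.033) and -1.12 for Plin2 (0.044), while G0s2 was at -1.26 (adjusted p = 0.077; -1.80, adjusted p = 0.028, without cachexia animal 2). With the third pre-cachexia animal left out, Lpin1 (2.24), Plin4 (2.2) and Plin2 (-1.49) still passed in hepatocyte nuclei. Most of these calls were near the threshold. In hepatocyte nuclei those of Plin4 and Plin2 were lost without pre-cachexia animal 1, 2 or 4 or cachexia animal 2, 3 or 4 (adjusted p 0.055 to 0.15), and that of G0s2 without pre-cachexia animal 1, 3 or 4 or cachexia animal 1, 3 or 4 (0.053 to 0.14) and in a fit of the C26 cohort alone (0.071). Without cachexia animal 4 none of the 4 passed. For whole liver, the call of Lpin1 was lost without cachexia animal 4 (0.052), that of Plin4 without cachexia animal 2 or 4 or pre-cachexia animal 1, 2 or 4 (0.059 to 0.13), and that of Plin2 without cachexia animal 2, 3 or 4 or pre-cachexia animal 1, 2 or 4 (0.083 to 0.19). The whole liver call of Plin2 was also lost with DESeq2's size factors (0.055), without the low-count filter (0.054) and in the cohort alone (0.062), and DESeq2 called G0s2 there (-1.27, 0.032). Hepatocyte markers moved with this comparison, as given above; their part was not tested. Lpin1 was on opposite sides of PBS in the 2 stages, with changes against the same PBS animals of 1.21 (SE 0.60, adjusted p = 0.15) in cachexia and -1.09 (SE 0.59, adjusted p = 0.27) in pre-cachexia, neither of which passed. Plin4 likewise had 0.68 (SE 0.56, adjusted p = 0.41) and -1.12 (SE 0.57, adjusted p = 0.23).

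**Figure D2:**
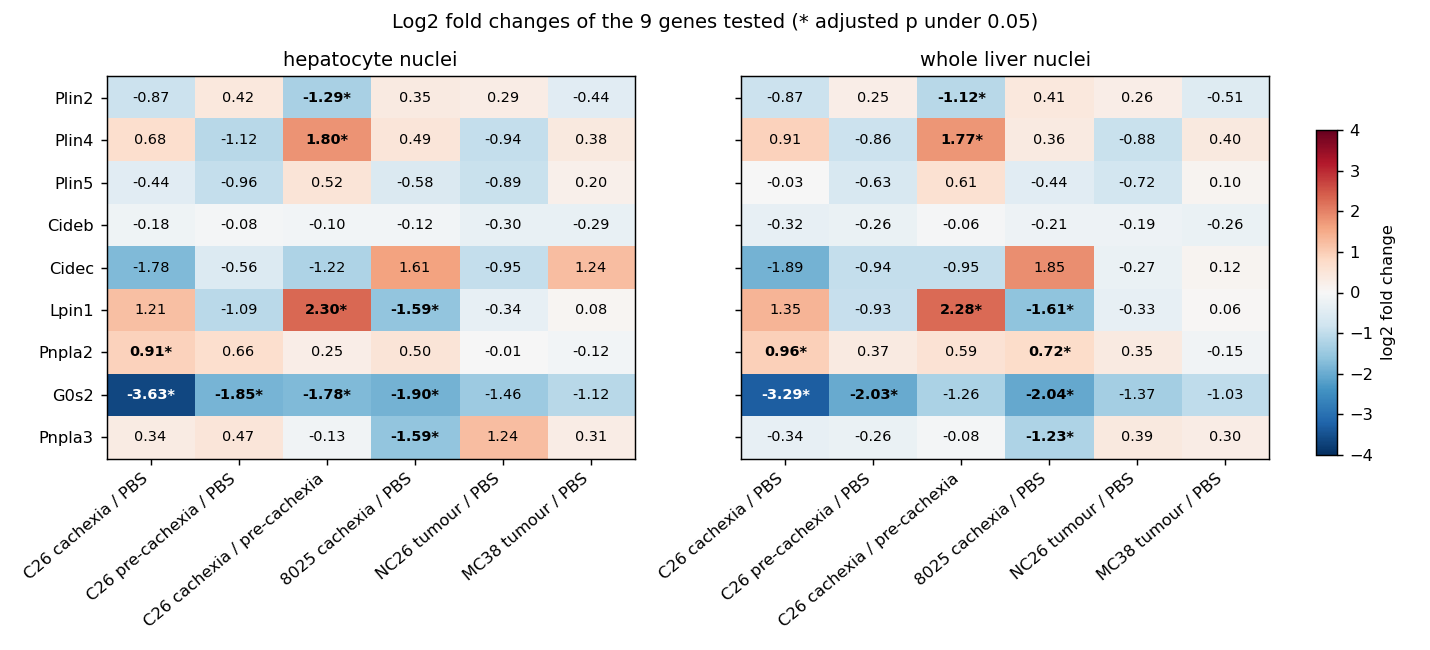
Log2 fold changes of the 9 genes tested (rows) in 6 comparisons (columns), in hepatocyte nuclei on the left and whole liver nuclei on the right; red is higher and blue lower in the group named first, and asterisks mark an adjusted p under 0.05. G0s2 has negative values in all 6 comparisons of both fractions, from -3.63 in C26 cachexia to -1.03 in MC38 tumour, and Lpin1 has 2.3 for C26 cachexia against pre-cachexia and -1.59 for 8025 cachexia against PBS in hepatocyte nuclei.

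In the second cachexia model, 8025, G0s2, Pnpla3 and Lpin1 fell in hepatocyte nuclei. G0s2 had 3.04, 2.74, 2.80 and 4.87 CPM in cachexia and 18.4, 18.2, 5.06 and 7.64 CPM in PBS, with no overlap between the groups (-1.90, SE 0.53, adjusted p = 0.0075, edgeR). Pnpla3 (chr15:84167816-84189521, plus strand) is a relative of ATGL on the droplet surface whose human variant is tied to fatty liver. It had 2.37, 1.95, 3.02 and 0.689 CPM in cachexia and 4.35, 4.46, 6.03 and 9.70 CPM in PBS. The groups did not overlap (-1.59, SE 0.45, adjusted p = 0.0083, edgeR). The 8025 PBS level was high for its strain: MC38 PBS, also C57BL/6N, had 1.81 ± 0.638 CPM. The means were 6.14 ± 2.49 CPM in 8025 PBS and 2.01 ± 0.983 CPM in 8025 cachexia (SD). In whole liver nuclei MC38 PBS had 2.01 ± 0.574 CPM, 8025 PBS 5.37 ± 2.16 CPM and 8025 cachexia 2.25 ± 0.55 CPM. A difference between the PBS groups was not tested. Lpin1 had 530, 346, 307 and 428 CPM in cachexia and 1140, 2030, 828 and 839 CPM in PBS, also without overlap (-1.59, SE 0.60, adjusted p = 0.046, edgeR). The calls of G0s2 and Pnpla3 held in each of the 8 fits that left out 1 animal, in both fractions. That of Lpin1 was lost without PBS animal 1 or 2 or any 1 of the 4 cachexia animals (adjusted p 0.054 to 0.16), with DESeq2's size factors (0.050) and with replicate number as a block (0.052).

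In whole liver nuclei G0s2, Pnpla3 and Lpin1 also fell, by 2.04 for G0s2 (adjusted p = 0.0012), 1.23 for Pnpla3 (0.0031) and 1.61 for Lpin1 (0.029) on the log2 scale. Pnpla2 rose there, with 15.7, 13.0, 14.4 and 14.2 CPM in cachexia and 5.23, 7.72, 12 and 10 CPM in PBS. All 4 cachectic animals were above all PBS animals (0.72, SE 0.28, adjusted p = 0.045, edgeR). This call was lost without PBS animal 1 or 2 or cachexia animal 1, 3 or 4 (0.058 to 0.17) and without the low-count filter (0.051), and in hepatocyte nuclei Pnpla2 differed by 0.50 (SE 0.29, adjusted p = 0.21). The whole liver call of Lpin1 was lost without PBS animal 2 (0.12) or cachexia animal 2 (0.073), 3 (0.083) or 4 (0.053). Cideb passed there without PBS animal 1 (-0.35, adjusted p = 0.036). Members called were 3 of 9 in hepatocyte nuclei and 4 of 9 for whole liver, beside 29.3% and 36.6% of all genes tested. Members without overlap between the groups were also 3 of 9 and 4 of 9, beside 28.1% and 27.4% of all genes.

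**Figure D3:**
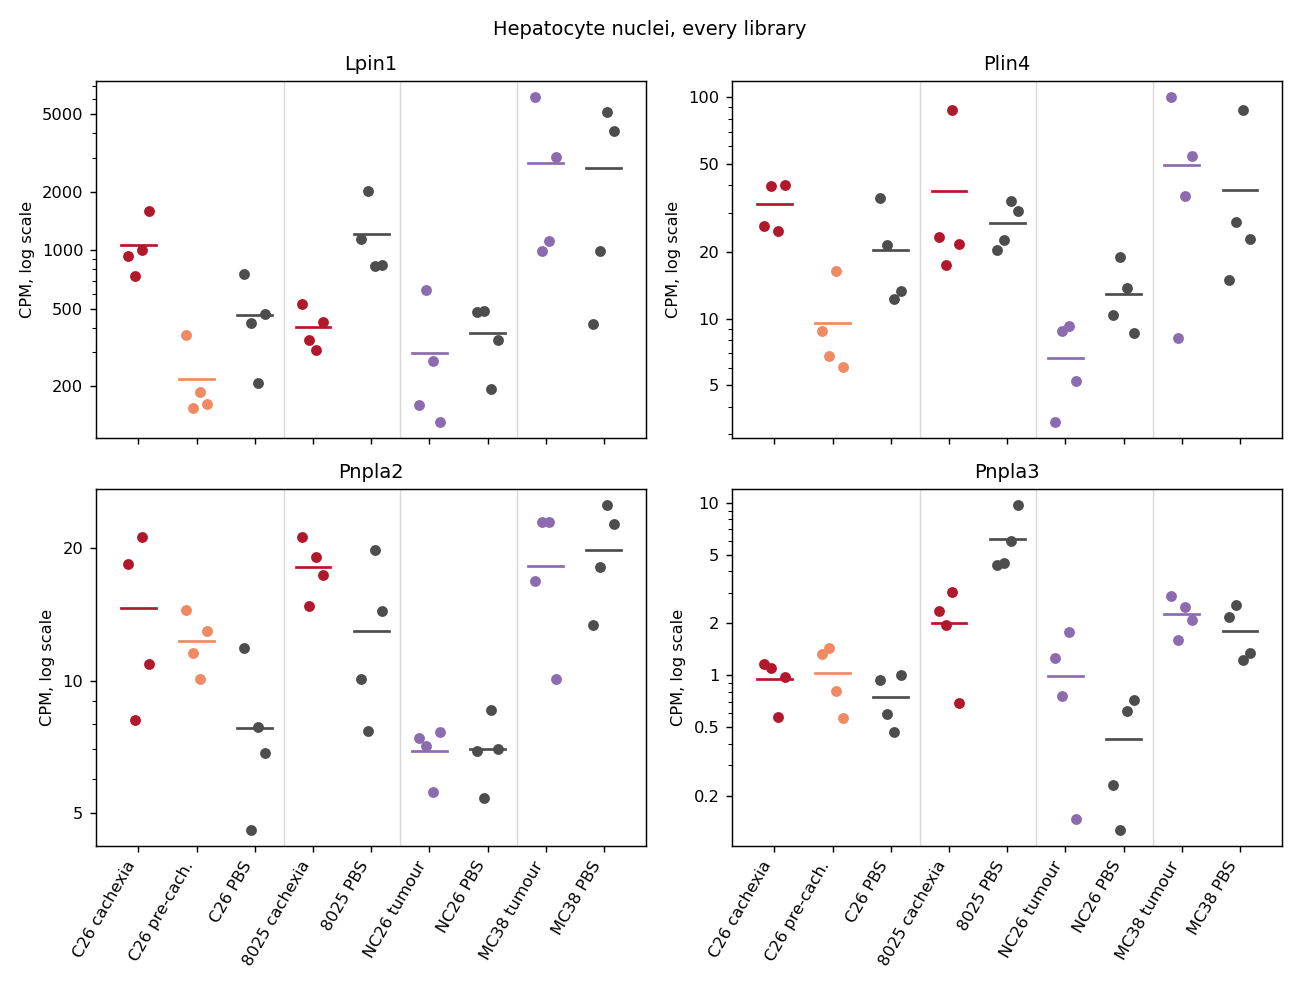
Lpin1, Plin4, Pnpla2 and Pnpla3 in every hepatocyte library, in CPM on a log scale; points are animals and lines are group means. Lpin1 lies at 742 to 1600 CPM in C26 cachexia and 154 to 367 CPM in C26 pre-cachexia, and at 307 to 530 CPM in 8025 cachexia against 828 to 2030 CPM in 8025 PBS; in the MC38 cohort it runs over 989 to 6130 CPM in tumour animals and 417 to 5150 CPM in PBS animals.

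One 8025 cachexia animal, the third, differed from the other 3 in the droplet coat genes. Its hepatocyte nuclei held 122 CPM of Plin2, where the other cachectic animals had 31.8, 32.6 and 32.6 CPM and PBS animals 44.4, 35.6, 36.8 and 55.0 CPM. Plin4 was 87.7 CPM in this animal, against 23.4, 17.5 and 21.8 CPM in the other 3, and Cidec was 5.79 CPM against 0.113, 0.105 and 0.295 CPM. Plin5 (chr17:56111601-56117548, minus strand), a perilipin that ties droplets to mitochondria, was 20.0 CPM against 8.26, 6.42 and 10.9 CPM. The whole liver library of the same animal showed the same order, with 121 CPM of Plin2, 57.5 CPM of Plin4, 13.7 CPM of Plin5 and 3.77 CPM of Cidec, each the highest of its group. Its G0s2 (2.80 CPM), Lpin1 (307 CPM), Pnpla2 (19.1 CPM) and Cideb (15.9 CPM) in hepatocyte nuclei were within or below the range of the other 3, whereas its Pnpla3 (3.02 CPM) was above their 2.37, 1.95 and 0.689 CPM. Its hepatocyte library held 24.5 M counts, where the group ran over 17.7 to 25.6 M counts; its whole liver library held 30.3 M counts, the most of the 36 whole liver libraries, against 12.2 to 17.1 M in the other 3. Its summed adipocyte markers were 0.401 CPM in hepatocyte nuclei, within the group's range of 0.300 to 0.579 CPM, but in whole liver nuclei they were the highest of the group, at 2.0 CPM against 1.29 to 1.51 CPM in the other 3. Its cholangiocyte markers summed to 50.9 CPM, against 9.63 to 14.8 CPM in the other 3, and its T and NK cell markers to 100 CPM, against 16.1 to 55.4 CPM; their part in the result was not tested.

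This animal decided the direction of Cidec. With it, Cidec was 1.61 (SE 0.69, adjusted p = 0.078, edgeR) in hepatocyte nuclei of 8025 cachexia against PBS, and 1.85 (SE 0.77, adjusted p = 0.060) in whole liver nuclei. Without it, Cidec fell by 1.62 on the log2 scale in hepatocyte nuclei (adjusted p = 0.0099), a 3.07-fold lower level, and by 2.17 in whole liver nuclei (adjusted p = 0.029). These changes rest on few reads. In whole liver nuclei, Cidec had 1 to 130 reads in 8025 cachexia, the most in the third animal, and 3 to 8 in PBS. In hepatocyte nuclei it had 2 to 159 reads in 8025 cachexia and 3 to 20 in PBS. The other 3 cachectic animals had 0.0560, 0.0624 and 0.0754 CPM of Cidec in whole liver nuclei, all below the PBS values of 0.196, 0.624, 0.285 and 0.183 CPM. With any 1 of those 3 left out instead, the rise passed in both fractions (1.94 to 1.98 in hepatocyte nuclei, adjusted p 0.020 to 0.033), and it also passed in whole liver nuclei without PBS animal 2 (2.34, adjusted p = 0.046). Plin2 was 0.35 (SE 0.38, adjusted p = 0.53) in hepatocyte nuclei with the animal and -0.41 (adjusted p = 0.41) without it, and Plin4 was 0.49 (SE 0.56, adjusted p = 0.54) and -0.36 (adjusted p = 0.68). The number of members called in hepatocyte nuclei was 3 with and 3 without it; in whole liver nuclei it was 4 with and 3 without it.

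**Figure D4:**
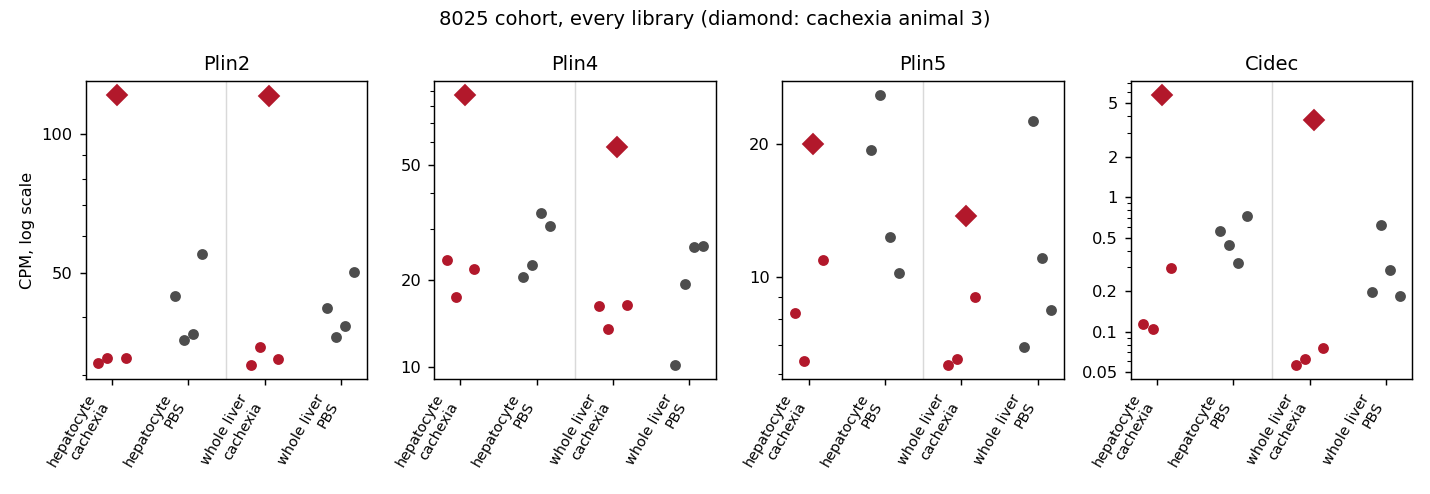
Plin2, Plin4, Plin5 and Cidec in every library of the 8025 cohort, in CPM on a log scale, with cachexia (red) left of PBS (grey) in each fraction; the diamond is the third cachexia animal. It has 122 CPM of Plin2 and 5.79 CPM of Cidec in hepatocyte nuclei, while the other cachectic animals have at most 32.6 and 0.295 CPM.

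In mice with weight-stable tumours no member was called in either fraction. For NC26 tumour against PBS, edgeR called 0 of 9 members in both fractions; 3 had an unadjusted p under 0.05 in hepatocyte nuclei and 1 for whole liver, and DESeq2 also called 0. For MC38 tumour against PBS, edgeR and DESeq2 called 0 in both fractions, with 1 member, G0s2, at an unadjusted p under 0.05 in each. Of all genes tested, 0.324% were called for NC26 and 0% for MC38 in hepatocyte nuclei, and 0.728% and 0% for whole liver. G0s2 was at -1.46 (SE 0.51, 95% interval -2.51 to -0.41, adjusted p = 0.24) for NC26 in hepatocyte nuclei. Its levels there were 6.05, 6.87, 6.22 and 10.2 CPM in tumour animals and 15, 28.2, 22.1 and 15.4 CPM in PBS animals, which did not overlap. A fit of the NC26 cohort alone passed in edgeR (adjusted p = 0.047, and 0.039 in whole liver nuclei). For NC26, groups did not overlap for 3 of 9 members in each fraction, beside 7.73% and 8.15% of all genes. For MC38, G0s2 was at -1.12 (SE 0.51, 95% interval -2.17 to -0.06, adjusted p = 1.0), with overlapping groups.

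The MC38 cohort varied widely within both arms. Lpin1 had 6130, 989, 1120 and 3030 CPM in hepatocyte nuclei of tumour animals and 417, 993, 5150 and 4100 CPM in those of PBS animals. Plin5 had 72.3, 8.14, 27.6 and 42.4 CPM in tumour animals and 12.3, 25.6, 62.3 and 30.7 CPM in PBS animals, and Plin4 had 100, 8.18, 35.7 and 54.3 CPM and 14.9, 27.2, 87.3 and 23.0 CPM. The first tumour animal and the third PBS animal were the highest of their group in all 3 genes. The spread was nearly the same in whole liver nuclei, where Lpin1 ran over 830 to 5130 CPM in tumour and 382 to 4270 CPM in PBS animals.

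Whether an effect differed between tumours was tested as a difference of log2 fold changes, each against its own PBS group, for 3 pairs of tumours. The C26 and 8025 cohorts are of different strains, so tumour and strain cannot be told apart in C26 cachexia minus 8025 cachexia. In hepatocyte nuclei edgeR called 0 of 9 members in all 3: C26 cachexia minus NC26 (3 members at an unadjusted p under 0.05), 8025 cachexia minus MC38 (1) and C26 cachexia minus 8025 cachexia (5). DESeq2 called Pnpla3 in the second (-1.89, adjusted p = 0.037) and Cidec and Lpin1 in the third (-3.48, 0.029, and 2.76, 0.042). All genes were called at 1.89%, 7.21% and 0.957% there. For G0s2, C26 cachexia minus NC26 was -2.17 (SE 0.73, 95% interval -3.67 to -0.67, adjusted p = 0.12), and it passed without C26 cachexia animal 2 (-3.01, 0.026). In the third 8025 cachexia animal's absence, Cidec (-2.87, 0.0027) and Pnpla3 (-2.18, 0.046) differed between 8025 cachexia and MC38, and Cidec differed between C26 and 8025 cachexia without 8025 cachexia animal 1 (-3.78, 0.029) or 2 (-3.76, 0.048). In whole liver nuclei 0, 1 and 2 members were called, beside 3.40%, 13.5% and 6.57% of all genes. The first count of 0 had 4 members at an unadjusted p under 0.05, and DESeq2 called 1, G0s2 (-1.95, adjusted p = 0.033); edgeR gave G0s2 -1.92 (adjusted p = 0.081), and -2.46 (0.033) without C26 cachexia animal 2. Pnpla3 differed by -1.53 (SE 0.46, adjusted p = 0.024, edgeR) between 8025 cachexia and MC38, and in hepatocyte nuclei by -1.90 (SE 0.64, adjusted p = 0.065). Without 8025 cachexia animal 4, 8025 PBS animal 4, MC38 tumour animal 1 or MC38 PBS animal 3, the whole liver p was 0.050 to 0.062. Lpin1, higher in C26 cachexia and lower in 8025 cachexia than in their PBS groups, differed by 2.96 (SE 0.82, adjusted p = 0.024, edgeR) in whole liver nuclei and by 2.79 (SE 0.85, adjusted p = 0.10) in hepatocyte nuclei. That call was lost without C26 cachexia animal 4 (0.065), C26 PBS animal 3 (0.055), 8025 cachexia animal 3 (0.059) or 8025 PBS animal 2 (0.062). The called difference of Cidec in whole liver nuclei, -3.74 (SE 1.16, adjusted p = 0.047, edgeR), was 0.30 (adjusted p = 0.89) without the third 8025 cachexia animal. It also missed the threshold without any 1 C26 cachexia animal, C26 PBS animal 2, 3 or 4, or 8025 PBS animal 1, 3 or 4 (0.060 to 0.10), and without the low-count filter (0.052). Plin2 passed without C26 cachexia animal 1 (-1.77, 0.029).

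The strains were compared in PBS animals, with BALB/c (C26 and NC26 cohorts, n = 8) set against C57BL/6N (8025 and MC38 cohorts, n = 8). Pnpla3, Lpin1, Pnpla2 and Plin4 were lower and G0s2 higher in BALB/c, 5 of 9 members in hepatocyte nuclei, beside 41.2% of all genes tested. Pnpla3 ran over 0.127 to 1.0 CPM in the hepatocyte nuclei of BALB/c and over 1.22 to 9.70 CPM in those of C57BL/6N, without overlap (-2.56, SE 0.35, adjusted p = 9.8e-07, edgeR). Lpin1 differed by -2.10 (SE 0.43, adjusted p = 0.00025), Pnpla2 by -1.11 (SE 0.21, adjusted p = 9.8e-05), Plin4 by -0.98 (SE 0.40, adjusted p = 0.048) and G0s2 by 0.90 (SE 0.35, adjusted p = 0.041). Whole liver nuclei had 6 of 9 called, beside 39.6% of all genes: those 5, from -2.16 for Lpin1 to 1.26 for G0s2, and Plin2 (0.65, SE 0.26, adjusted p = 0.045). With 1 animal left out, the calls of Pnpla3, Lpin1 and Pnpla2 held in all 16 fits of each fraction. Cohorts are nested in strains, so these fits do not test whether a single cohort carries a difference. In whole liver nuclei, Pnpla2 had 8.73 ± 2.9 CPM in 8025 PBS and 17.6 ± 2.88 CPM in MC38 PBS (SD). There C26 PBS had 7.01 ± 2.55 CPM and NC26 PBS 7.98 ± 1.41 CPM, so only MC38 PBS stood above the rest. Pnpla3 had 6.14 ± 2.49 CPM in hepatocyte nuclei of 8025 PBS and 1.81 ± 0.638 CPM in those of MC38 PBS. C26 PBS had 0.75 ± 0.257 CPM and NC26 PBS 0.424 ± 0.289 CPM. Lpin1 had 1210 ± 565 CPM in 8025 PBS and 2670 ± 2320 CPM in MC38 PBS, whose lowest animal had 417 CPM. Its levels were 465 ± 226 CPM in C26 PBS and 378 ± 139 CPM in NC26 PBS. In hepatocyte nuclei the call of G0s2 was lost without C26 PBS animal 1 or 3, NC26 PBS animal 2 or 3, 8025 PBS animal 3 or 4, or MC38 PBS animal 2, 3 or 4 (0.052 to 0.11). That of Plin4 was lost without C26 PBS animal 2, 3 or 4, NC26 PBS animal 1, 3 or 4, 8025 PBS animal 3 or 4, or MC38 PBS animal 3 (0.062 to 0.26), the change without the last of these being -0.54. It was also lost with DESeq2's size factors (0.051), without the low-count filter (0.052), without the 5 genes with ribosomal RNA-like sequence (0.054) and with replicate number as a block (0.079), under which G0s2 was lost too (0.051). Plin2 passed in hepatocyte nuclei without MC38 PBS animal 1 (0.78, 0.023). In whole liver nuclei Plin4 was lost without MC38 PBS animal 3 (0.062), and Plin2 in 12 of 16 fits (0.054 to 0.081), all but those without C26 PBS animal 1, 8025 PBS animal 4, NC26 PBS animal 4 or MC38 PBS animal 1. Cideb passed there without 8025 PBS animal 4 (0.26, 0.027).

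Both fractions came from the same animals, and with the animal as a block 9 of 9 members differed between hepatocyte and whole liver nuclei of PBS animals, beside 69.6% of all genes. Of the 9, 8 were higher in hepatocyte nuclei, from 0.14 for Plin2 to 0.60 for Plin4, beside 41.4% of all genes, and Pnpla3 was lower (-0.41, adjusted p = 0.015), beside 28.2%. This paired fit was not repeated without the first C26 PBS animal. With CPM scaled over both fractions, that animal had 38.5 CPM of Plin4 in hepatocyte nuclei and 6.78 CPM in whole liver nuclei. Its Plin5 was 59.2 and 10.3 CPM. These were the largest ratios of the 36 animals for the 2 genes (5.68 and 5.72). The lower level of Pnpla3 did not hold in every cohort. With CPM scaled over both fractions, NC26 PBS animals had 0.243, 0.131, 0.635 and 0.771 CPM in hepatocyte nuclei. Their whole liver nuclei had 0.854, 0.736, 0.727 and 1.49 CPM. In 8025 PBS, values were 4.53, 4.63, 6.15 and 10 CPM against 2.76, 5.62, 4.29 and 7.59 CPM, lower only in animal 2. C26 PBS was lower in all but animal 1, and MC38 PBS went both ways. A difference by cohort was not tested. Lpin1 was higher in the hepatocyte library of 36 of 36 animals, by a median ratio of 1.34, and Pnpla3 in 16 of 36, by a median ratio of 0.890. In the fit without pairing, where the changes were of about the same size (-0.38 for Pnpla3 to 0.62 for Plin4), Cideb alone was called (0.26, SE 0.07, adjusted p = 0.0011, edgeR), 1 of 9 members beside 50.9% of all genes. Plin5 (0.56, adjusted p = 0.055) passed without C26 PBS animal 2, 3 or 4, 8025 PBS animal 2 or 3, or MC38 PBS animal 1 (0.036 to 0.047), Pnpla2 without C26 PBS animal 4 (0.041) or 8025 PBS animal 3 (0.045), and Plin4 without 8025 PBS animal 3 (0.049). Cideb (chr14:55754055-55758424, minus strand) is the CIDE protein of normal liver and acts in VLDL lipidation; its span overlaps Nop9 on the other strand by 1580 bases, and the use of strand in counting is not given in the sources used here. Nop9 differed by 0.25 (SE 0.08, adjusted p = 0.0097, edgeR) between the fractions, so reads of the pair cannot be told apart there. No test of a member's tumour effect between the fractions passed: edgeR called 0 of 9 in each of the 5 comparisons, with 0 at an unadjusted p under 0.05, and 0 were called in DESeq2 or with the animal as a block. Of all genes, 0% to 0.0427% were called in these 5 without the block, and with it 0.441% for C26 cachexia, 0.206% for C26 pre-cachexia, 1.35% for 8025 cachexia, 0.00712% for NC26 and 0% for MC38.

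Genes whose level followed a member most closely were sought over the 36 hepatocyte libraries, as the correlation of log2 CPM centred on each cohort's PBS mean, among 8838 other genes that averaged 5 CPM or more. These are descriptions, since the libraries share animals, groups and sequencing. G0s2 was closest to Dhrs1 (r = 0.88) and Fam102a (0.87), Pnpla2 to Mnt (0.87) and Ctdsp2 (0.86), and Lpin1 to Pptc7 (0.86) and Klf13 (0.80). Plin2 was closest to Slc35d2 (0.85), Plin4 to Fbxo42 (0.84) and Plin5 to Zfp276 (0.84), while Cideb reached only 0.61 with Lrrc45. Among the members themselves, Plin4 and Plin5, which lie 1798 bases apart on the same strand, had the highest r (0.76), Plin2 and Lpin1 the lowest (-0.62), and Pnpla2 and G0s2 had -0.59. Lrg1, 2129 bases from Plin5 on the same strand, was called higher in hepatocyte nuclei of C26 cachexia (3.15, SE 0.55, adjusted p = 9.3e-05, edgeR) and of 8025 cachexia (3.13, SE 0.56, adjusted p = 8.6e-05), where Plin5 had -0.44 (adjusted p = 0.57) and -0.58 (adjusted p = 0.42). In hepatocyte nuclei of 8025 cachexia, Samm50, 2711 bases from Pnpla3 on the same strand, fell by 0.49 (adjusted p = 0.0048), and Cracr2b, 350 bases from Pnpla2 on the same strand, rose (1.38, adjusted p = 0.033). Nop9 fell by 0.51 in C26 cachexia (adjusted p = 0.024), where Cideb had -0.18 (adjusted p = 0.38).

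Among other lipases and their cofactors, most changes in cachexia were downward. Of 13 genes tested in hepatocyte nuclei, 6 fell and 0 rose in C26 cachexia, and 5 fell and 0 rose in 8025 cachexia, with medians of -0.52 and -0.65 where all genes had 0 and -0.02. All genes were called lower at 10% and 13.1% and higher at 12.2% and 16.2% in these comparisons. Carboxylesterases that act on triglyceride led C26 cachexia: Ces1f (44.8 ± 52.4 CPM in cachexia, 451 ± 105 CPM in PBS; SD, n = 4), Ces1d (237 ± 152 and 1510 ± 314 CPM) and Ces3a (213 ± 110 and 1040 ± 230 CPM). In 8025 cachexia, Ces1f fell by 4.02 and Ces1d by 3.06 on the log2 scale (adjusted p = 2.1e-06 and 4.1e-06, edgeR), and Mgll, which encodes monoglyceride lipase, by 2.08 (4.2e-05). These carboxylesterase genes have near-identical neighbours, among which short reads could be split. Abhd5, the co-activator of ATGL, and Lipe, the hormone-sensitive lipase, had changes of -0.12 and -0.22 in C26 cachexia (adjusted p = 0.77 and 0.47) and -0.36 and -0.19 in 8025 cachexia (0.28 and 0.53). Without the first C26 PBS animal 5 of the 13 fell in C26 cachexia, Mgll being lost, and without the third 8025 cachexia animal 5 fell in 8025 cachexia.

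Of 13 other droplet coat and growth genes tested in hepatocyte nuclei, 3 fell and 0 rose in C26 cachexia, beside 10% and 12.2% of all genes. In 8025 cachexia 4 fell and 0 rose, beside 13.1% and 16.2%. Mettl7b fell by 1.59 in C26 cachexia (adjusted p = 2.4e-05). Fitm2, whose product helps droplets bud from the endoplasmic reticulum, fell by 0.78 in C26 cachexia (0.0057) and by 0.60 in 8025 cachexia (0.027), and Ldah by 0.38 (0.014) and 0.50 (0.00097). Mettl7a1 fell by 0.91 in 8025 cachexia (0.016, edgeR). Medians were -0.18 in both. Mettl7a1 was lost without the third 8025 cachexia animal (-0.80, 0.061).

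Of 16 triglyceride synthesis genes, 2 rose and 2 fell in C26 cachexia, beside 12.2% and 10% of all genes. In 8025 cachexia 1 rose and 3 fell, beside 16.2% and 13.1%. Dgat2, which adds the last fatty acid to triglyceride, fell in both, by 0.73 (adjusted p = 0.030) and 1.09 (0.0012, edgeR). Agpat3 rose by a log2 change of 0.64 in C26 cachexia (0.012), where Mogat1 fell by 2.22 (0.040). Mogat1 was scarce, at 0.203 ± 0.298 CPM in C26 cachexia and 0.873 ± 0.69 CPM in PBS (SD), and these groups overlapped. Agpat9, the table's symbol for Gpat3, rose in 8025 cachexia (2.46, adjusted p = 5.0e-05), where Acsl1 fell by 1.76 (0.00068). Medians were -0.10 and -0.31. Dgat2 was lost in C26 cachexia without the first PBS animal (-0.42, 0.20), where 1 gene of the list rose and 1 fell; without the third 8025 cachexia animal, Agpat9 was at 2.0 and Dgat2 at -1.02, and both passed.

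Of 10 genes of fatty acid uptake and binding, 2 rose and 3 fell in C26 cachexia, beside 12.2% and 10% of all genes. In 8025 cachexia 2 rose and 2 fell, beside 16.2% and 13.1%. Cd36, a fatty acid transporter, had 29.7 ± 11.8 CPM in C26 cachexia and 6.15 ± 2.61 CPM in PBS, and 19.8 ± 13.6 CPM in 8025 cachexia and 6.52 ± 1.99 CPM in PBS (SD, n = 4 each; log2 2.27 and 1.60, adjusted p = 0.00012 and 0.0029, edgeR). Macrophages and endothelium also express Cd36; the rise of macrophage markers stands above, and its part was not tested. Fabp1, the fatty acid binding protein of hepatocytes, fell by 3.0 and 3.75 on the log2 scale (7.8e-05 and 3.9e-06), and Fabp2 by 1.54 in C26 cachexia (0.0067). Medians were 0.12 and -0.36. Without the third 8025 cachexia animal, Cd36 was at 0.99 (adjusted p = 0.053, edgeR) and no longer called, and 0 of the 10 rose and 1, Fabp1, fell; without the first C26 PBS animal, Cd36 was at 2.04 (0.00097) in C26 cachexia.

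Of 15 regulators known to act on such genes, 2 rose and 1 fell in C26 cachexia, beside 12.2% and 10% of all genes. In 8025 cachexia 1 rose and 3 fell, beside 16.2% and 13.1%. Insig2, which restrains SREBP activation, rose in both (2.24, adjusted p = 0.00061, and 2.43, adjusted p = 0.00020, edgeR). Ppargc1a, which encodes PGC-1α, rose in C26 cachexia (1.35, 0.0095), where Creb3l3 fell by 0.98 (0.00015). The lipogenic factors Mlxipl and Srebf1 fell in 8025 cachexia by 1.36 (0.00012) and 1.30 (0.0038). Medians were -0.15 and -0.21. Without the first C26 PBS animal, 3 of the list rose and 2 fell in C26 cachexia, Pparg and Nr1h2 being gained. Ppara, a known activator of Plin2, Plin5, Cidec and G0s2 in liver, had -0.63 (adjusted p = 0.064) in C26 cachexia and fell by 0.65 (0.044) in 8025 cachexia, where it was -0.49 (0.17) without the third cachexia animal.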

How the data were processed

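Total RNA of bead-bound hepatocyte nuclei and whole liver nuclei from 36 mice was sequenced as 50-base paired reads, from a stranded kit without poly-A selection, per the labels' protocols. The submitters' processing notes name STAR 2.4.2a, DESeq2 1.24.0 and mm10. The authors deposited raw read counts per gene over whole gene spans. Whether counting used strand is not given in the sources used here.

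From these counts, edgeR 4.0.16 (R 4.3.3, limma 3.58.1) gave TMM-scaled CPM and quasi-likelihood tests: 1 fit of 36 libraries per fraction, with 9 groups of 4 animals and 27 residual degrees of freedom, and 1 of 72 libraries for fraction effects. Genes passing filterByExpr (minimum count 10) numbered 13274, 13738 and 14054. P-values were Benjamini-Hochberg adjusted over all of them, with a threshold of 0.05. Intervals are 95%. The code was tested on simulated data. Alternatives were DESeq2 1.42.0, its size factors, no low-count filter, leaving out 5 genes with ribosomal RNA-like sequence, the cohort alone, replicate blocks and leaving out each animal. Counts of other lists without an animal that stood apart were added after seeing the data.

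The members, lists, motifs and naming rules were chosen with earlier results of these data known. Named pathway genes are up to 3 called genes per list and comparison with the smallest p, and called neighbours within 5000 bases of a member; Abhd5, Lipe and Ppara fall outside this rule and were named after their values were seen. Replicate numbers were not taken as pairs, since in no comparison did all animals of the same number deviate together with r over 0.1. In C26 pre-cachexia against PBS, r was 0.07 to 0.4 in hepatocyte nuclei and 0.06 to 0.16 in whole liver nuclei. Libraries of the same animal did deviate together (median r = 0.54, over 0.1 in 35 of 36), so the animal is a block for the fraction comparison. Among 108 replicate pairs, 0 had identical counts. P-values measure the spread between these animals. In the fit of a fraction, all groups share the estimate of spread of a gene, so groups outside a comparison also weigh on its p-value. With the animal as a block, p-values measure the spread left after each animal's own level is taken out.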

Additional observations from a re-analysis of the deposited data

Results flagged for a closer look

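Within each group of 4 animals, the highest or lowest value was compared with its neighbour by Dixon's ratio for each tested gene and fraction. Of 162 groups, 18 held a value apart, where chance gives about 1 in 20 and 4.48% to 9.62% of all genes tested did so in a group, and 6 of the 18 came from the third 8025 cachexia animal. Those were Plin2 (122 CPM in hepatocyte and 121 CPM in whole liver nuclei), Plin4 (87.7 and 57.5 CPM) and Cidec (5.79 and 3.77 CPM). In the C26 cohort, Cidec was high in whole liver nuclei of cachexia animal 3 (0.237 CPM) and Lpin1 in those of cachexia animal 4 (1340 CPM). Cidec had only 2 to 4 reads in the whole liver libraries of C26 cachexia. In hepatocyte nuclei of C26 pre-cachexia, Lpin1 was high in animal 1 (367 CPM) and G0s2 low in animal 2 (3.83 CPM). In hepatocyte nuclei of C26 PBS, Plin5 was high in animal 1 (53.7 CPM) and Cideb low in animal 4 (16.0 CPM). In the 8025 cohort, G0s2 was high in hepatocyte nuclei of cachexia animal 4 (4.87 CPM) and Lpin1 in whole liver nuclei of PBS animal 2 (1670 CPM). In MC38 PBS, Plin2 was high in animal 1 (76.5 CPM in hepatocyte and 73.2 CPM in whole liver nuclei) and Plin4 in animal 3 (87.3 and 68.2 CPM).

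Of 99 tests of a difference between effects, 3 passed in edgeR, all in whole liver nuclei. They were Pnpla3 for 8025 cachexia minus MC38 (-1.53), Cidec for C26 minus 8025 cachexia (-3.74) and Lpin1 for C26 minus 8025 cachexia (2.96).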

How the results depend on the processing

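Leaving out 1 animal at a time gave 2520 values, of which 2380 stayed on their side of the threshold (113 of them, uncalled with and without the animal, changed sign), 107 lost a call, 29 gained one and 4 reversed. All 4 reversals were Cidec without 8025 cachexia replicate 3: -1.62 and -2.17 for 8025 cachexia against PBS in hepatocyte and whole liver nuclei, -2.87 for 8025 cachexia minus MC38 in hepatocyte nuclei and 0.30 for C26 minus 8025 cachexia in whole liver nuclei; leaving out any other animal gave up to 1.98, 2.34, 0.74 and down to -4.23. In these fits the number of members called in hepatocyte nuclei was 1 to 2 in C26 cachexia, 0 to 2 in pre-cachexia, 0 to 3 between cachexia and pre-cachexia, 2 to 3 in 8025 cachexia, 0 to 0 in NC26 and MC38, and 3 to 6 between strains. In whole liver nuclei these were 1 to 3, 1 to 1, 0 to 3, 3 to 4, 0 to 0 and 4 to 7, and 1 to 4 between fractions.

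The other alternatives gave 1273 values, of which 1236 stayed on their side of the threshold (19 uncalled ones changed sign), 16 lost a call, 21 gained one and 0 reversed. The fit of the cohort alone called 0 members in C26 pre-cachexia in hepatocyte nuclei and 1 in NC26 in each fraction. Between fractions, DESeq2 and the fit without 5 ribosomal RNA-like genes each called 2 members, and the replicate block by animal called 9. Replicate numbers were not taken as pairs, by the rule given above. With replicate number as a block, 3 members were called between strains in hepatocyte nuclei. Cidec for C26 minus 8025 cachexia in whole liver nuclei was -3.35 (0.076) under that block. The cause of these shifts was not tested. Depth limits Cidea (64 counts) and Cidec (1119 counts over 72 libraries).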
